A study of Mus musculus with 4 samples.

Results

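The 10 genes described here are H19, Igf2, Dlk1, Meg3, Rian, Mirg, Peg3, Mest, Plagl1 and Grb10, imprinted genes with known roles in growth. They were chosen by name, from loci held to be active in myoblasts, and grouped by locus. Dlk1 had the fewest reads of the 10 here, with 0 in the shallower control library. All 10 had a row among the 20065 genes of the deposited RNA-seq table, and all 10 were among the 16212 genes tested. The libraries came from cultured satellite cells (MuSC, the stem cells of skeletal muscle) of limb and trunk muscles of adult mice on a C57BL/6 background, 2 control and 2 Prmt5sKO. Prmt5 is an arginine methyltransferase that dimethylates histones and splicing proteins. Control cells were Pax7CreERT2/Prmt5+/loxP (+TAM), so that they too carried the Cre, 1 floxed allele and the exposure to tamoxifen (TAM). Prmt5sKO cells were Pax7CreERT2/Prmt5loxP/loxP (+TAM). For the RNA-seq, Cre was activated in the cultured cells of both groups with 4-OH-TAM, the active form of tamoxifen. The Pax7 promoter drives this inducible Cre, which limits the deletion to cells that express Pax7 at the time of induction and to their progeny. The labels do not say whether the 2 libraries of a group came from separate mice or cultures. The p-values therefore measure only the spread between these libraries. Xist, the RNA of the inactive X chromosome, differed widely between the 2 libraries of each group (values below). What set the libraries apart was not tested.

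Imprinted genes are expressed mainly from the copy inherited from 1 parent, because the germ lines of the father and the mother leave different DNA methylation on control regions near them. Many of them act on growth, and as a broad pattern the paternally expressed ones promote it while the maternally expressed ones restrain it. In skeletal muscle, H19 and Igf2 are induced when myoblasts differentiate, the long RNAs of the Dlk1-Dio3 region are expressed in satellite cells, and Dlk1 and Peg3 have been linked to muscle growth and to the behaviour of the stem cells. RNA-seq without allele information, as here, measures the sum of both parental copies.

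The deposited table gives the mean of each group, from which the whole read count of every gene in each library was recovered. Replicate numbers were not attached to these values, so the libraries are named by depth. The deeper control library held 14436914 reads, the shallower control library 13240754, the deeper Prmt5sKO library 20047430 and the shallower Prmt5sKO library 16190414. Values below are normalized counts, that is, reads divided by a scaling factor per library (TMM), and are given in the order deeper control, shallower control, deeper Prmt5sKO and shallower Prmt5sKO. Prmt5 itself was at 2273, 2906, 244 and 202, so both Prmt5sKO libraries matched their label. Markers of satellite cells and myoblasts were high in all 4 libraries, with Des up to 32171, Myod1 between 12153 and 15548 and Pax7 between 2570 and 3664. The libraries of a group did not match each other in other respects. Myog, a transcription factor switched on when myoblasts differentiate, was at 1436, 1189, 3707 and 19508, and the RNA of the inactive X chromosome, Xist, was at 8668, 23.3, 8.15 and 5655. The shallower Prmt5sKO library therefore stood apart by its muscle genes, and Xist was high in 1 library of each group. In such bulk samples, fewer cells of a type and less RNA per cell cannot be told apart.

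Several of the genes are hosts of small RNAs, and the mature microRNAs are shown because they are the sequences through which these transcripts are known to act on other mRNAs. RefSeq (GRCm38.p6) placed 2 mature microRNAs within H19, 2 within Igf2, 3 within Meg3, 6 within Rian, 26 from 14 hairpins within Mirg and 2 within Mest. Capitals mark the seed, bases 2 to 8, which pairs with targets. Sequences run 5′ to 3′.
miR-675-5p, within H19: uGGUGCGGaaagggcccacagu
miR-675-3p, within H19: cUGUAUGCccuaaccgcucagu
miR-483-5p, within Igf2: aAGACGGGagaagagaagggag
miR-483-3p, within Igf2: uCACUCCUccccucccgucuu
miR-770-5p, within Meg3: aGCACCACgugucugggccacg
miR-370-3p, within Rian: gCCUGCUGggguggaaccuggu
miR-453, within Mirg: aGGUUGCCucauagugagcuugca
miR-496a-5p, within Mirg: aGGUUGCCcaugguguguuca
miR-335-5p, within Mest: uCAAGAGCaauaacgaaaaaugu
Among the 26 mature sequences of Mirg there were 25 different seeds. The shared seed was that of miR-453 and miR-496a-5p. The other sequences shown had seeds that no other microRNA of these hosts shared. The values below are those of the host genes, since the hairpins themselves had few reads in these libraries, made from ribosome-depleted total RNA.

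**Figure D1:**
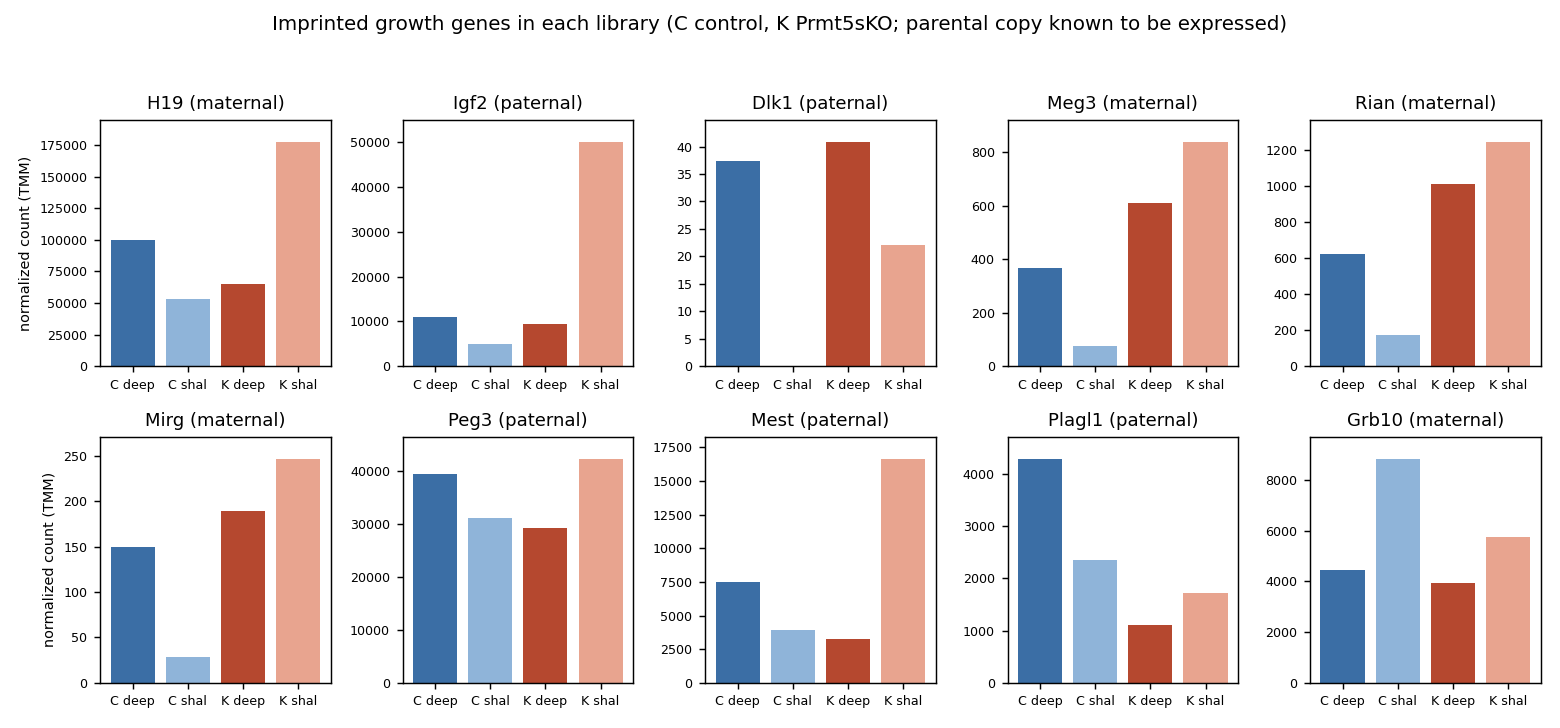
Normalized count (TMM, linear axis from 0, own scale in each panel) of each of the 10 genes in the 4 libraries, with C for control, K for Prmt5sKO, deep and shal for the deeper and shallower library of the group; each bar is 1 library and the parental copy known to be expressed stands in the title. H19, Igf2 and Mest were highest in the shallower Prmt5sKO library (1.77-fold, 4.52-fold and 2.22-fold above the deeper control, the next highest), Meg3, Rian and Mirg stood above both controls in each Prmt5sKO library, and Plagl1 stood below them.

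The comparison of Prmt5sKO with control asked how the loss of Prmt5 changed transcription in muscle stem cells. By limma-voom with Benjamini-Hochberg adjustment, none of the 10 genes passed an adjusted p of 0.05 with a change of at least 2-fold, beside 0.0% of all genes tested (0 of 16212, although Prmt5 itself was lower by 3.52 on the log2 scale, adjusted p = 0.193). At an unadjusted p under 0.05 by limma-voom there were 3 of the 10, namely Meg3 and Rian higher and Plagl1 lower in Prmt5sKO, beside 13.0% of all genes (2101). In the 2 directions these were 2 of 10 beside 6.01% of all genes for higher and 1 of 10 beside 6.95% for lower. With 2 libraries against 2, an exact permutation test of a single gene cannot give a two-sided p below 0.333. What the design can show of 1 gene is whether the libraries of the groups overlap. For 4 of the 10 they did not (Meg3, Rian and Mirg higher in both Prmt5sKO libraries, Plagl1 lower in both), beside 48.8% of all genes tested, so the share among the 10 did not exceed that among genes in general. Meg3, Rian and Mirg lie in the same region and moved together from library to library. The counts of the 10, here and below, therefore do not rest on 10 independent genes. The median log2 fold change of the 10 genes was 1.06, beside 0.02 for all genes tested. It was 0.08 without the shallower Prmt5sKO library, 0.12 without the shallower control and 1.73 without the deeper Prmt5sKO library.

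**Figure D2:**
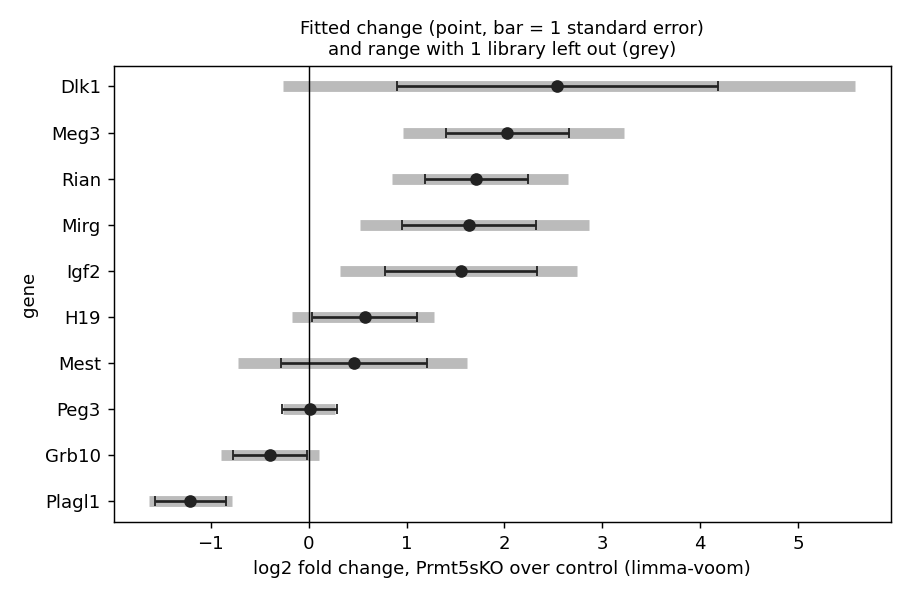
Fitted log2 fold change of each gene, Prmt5sKO over control, by limma-voom, with points for the fit of all 4 libraries, bars of 1 standard error and grey bands from the lowest to the highest value of 4 fits that each left out 1 library. The bands of Meg3, Rian, Mirg and Igf2 lay above 0 and that of Plagl1 below 0, while those of H19, Dlk1, Peg3, Mest and Grb10 crossed 0. For Meg3, Rian, Mirg and Plagl1 the side of 0 follows from groups that did not overlap.

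H19 and Igf2 lie next to each other on chromosome 7 and are expressed from opposite parental copies that share enhancers. H19 (ENSMUSG00000000031, minus strand, GRCm38 chr7:142575529-142578143) is a long non-coding RNA expressed from the maternal copy. It was at 100288, 53478, 65125 and 177080, which made it the gene with rank 5 of the table by mean normalized count. The control libraries averaged 76883 ± 33100 (SD, n = 2) and the Prmt5sKO libraries 121102 ± 79164 (SD, n = 2). The deeper Prmt5sKO library lay between the 2 controls and the shallower one above both. The fitted log2 fold change was 0.57 with a standard error of 0.53 (limma-voom, adjusted p = 0.659), and it moved to -0.17 without the shallower and 1.28 without the deeper Prmt5sKO library, and to 0.13 and 1.01 with the shallower or the deeper control left out.

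Igf2 (ENSMUSG00000048583, minus strand, GRCm38 chr7:142650766-142666816) codes for insulin-like growth factor 2, a secreted ligand that drives growth and myoblast differentiation, from the paternal copy. It was at 11046, 5054, 9341 and 49944, with control libraries averaging 8050 ± 4237 and Prmt5sKO libraries 29642 ± 28711 (SD, n = 2 each). As with H19, the deeper Prmt5sKO library fell between the controls. The shallower Prmt5sKO library stood 5.35-fold above the deeper one, and the deeper control 2.19-fold above the shallower one. The fitted log2 fold change was 1.56 with a standard error of 0.78 (limma-voom, adjusted p = 0.439). Leaving out the deeper Prmt5sKO library gave 2.74 and an adjusted p of 0.021 by limma-voom, the only one of these genes called when a library was left out, and leaving out the shallower one gave 0.32. Without the shallower control it was 1.01. The ratio of H19 reads to Igf2 reads was 9.08, 10.6, 6.97 and 3.55, so that the library with the most of both genes had the least H19 for each Igf2 read.

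Several genes near H19 and Igf2 were also highest in the shallower Prmt5sKO library. Nctc1, a transcript expressed in muscle that lies on the far side of H19 from Igf2, was at 12.4, 0, 2.96 and 179. Mir483, the hairpin of the Igf2 microRNAs shown above, was at 1.13, 0, 2.22 and 39.2, which amounts to 1, 0, 3 and 39 reads. The fast troponin genes Tnnt3 (901, 829, 966 and 8273) and Tnni2 (156, 130, 124 and 1625) lie within 200 kb of H19 too. Igf2os, transcribed from the strand opposite to Igf2 and overlapping it, was at 110, 51.9, 17.8 and 118. Whether the counting used the strand is not given in the sources used here, so the reads of Igf2 and Igf2os cannot be told apart with certainty. Of the 11 genes within 200 kb of H19 that were tested, 5 lay above both controls in each Prmt5sKO library and 0 lay below, beside 25.2% and 23.6% of all genes tested, and 2 had an unadjusted p under 0.05 by limma-voom, beside 13.0%. These were Ctsd, a lysosomal protease (8161, 4654, 12322 and 12578), and Syt8 (11.3, 22.0, 48.2 and 85.5).

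The Dlk1-Dio3 region of chromosome 12 holds the paternally expressed Dlk1 and a run of maternally expressed non-coding RNAs, of which Meg3, Rian and Mirg follow each other on the plus strand. Meg3 (ENSMUSG00000021268, GRCm38 chr12:109541001-109571726), a long RNA known as a growth restraint, was at 367, 75.2, 611 and 837. Both Prmt5sKO libraries lay above both controls. The groups averaged 221 ± 207 (SD, n = 2) and 724 ± 160 (SD, n = 2), and the fitted log2 fold change was 2.03 with a standard error of 0.63 (limma-voom, unadjusted p = 0.018, adjusted p = 0.308). The shallower control library held 4.88-fold less than the deeper one, while the deeper Prmt5sKO library held 1.66-fold more than the deeper control. The fitted value was 0.96 without the shallower control library and 3.22 without the deeper one.

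Rian (ENSMUSG00000097451, GRCm38 chr12:109603940-109661716), the host of many C/D box small nucleolar RNAs, was at 623, 176, 1011 and 1244. Its libraries stood in the same order as those of Meg3. The fitted log2 fold change was 1.71 with a standard error of 0.52 (limma-voom, unadjusted p = 0.017, adjusted p = 0.302). Mirg (ENSMUSG00000097391, GRCm38 chr12:109729764-109749460), the host of the largest of the microRNA groups listed above, was at 149, 28.5, 190 and 246, again in that order, with a fitted log2 fold change of 1.64 and a standard error of 0.69 (limma-voom, unadjusted p = 0.054, adjusted p = 0.390). Their gaps between the control libraries were 3.53-fold for Rian and 5.23-fold for Mirg, wider than those between the Prmt5sKO libraries, which were 1.23-fold and 1.30-fold. The fitted values were 0.85 for Rian and 0.53 for Mirg without the shallower control library, and 2.65 and 2.86 without the deeper one.

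The 3 long RNAs moved together from library to library. Rian gave 1.70, 2.34, 1.66 and 1.49 reads for each Meg3 read, and Mirg gave 0.406, 0.379, 0.311 and 0.294. Across the 4 libraries the first ratio varied 1.58-fold and the second 1.38-fold, while Meg3 itself varied 11.1-fold. The window around the start of Meg3 is shown because the maternal non-coding RNAs of the region are thought to arise largely as 1 long transcription unit that begins there. It is RefSeq's promoter window on the plus strand (GRCm38.p6, chr12:109540746-109541045), holds 13 CpG dinucleotides, and carries neither of the 2 motifs searched in all windows.
Meg3 promoter window: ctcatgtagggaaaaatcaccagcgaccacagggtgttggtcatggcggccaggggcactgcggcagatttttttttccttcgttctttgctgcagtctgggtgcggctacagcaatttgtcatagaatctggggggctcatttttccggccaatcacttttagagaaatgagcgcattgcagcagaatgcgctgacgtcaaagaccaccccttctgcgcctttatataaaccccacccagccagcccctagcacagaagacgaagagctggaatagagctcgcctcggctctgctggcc
RefSeq's window at the annotated start of Rian held 0 CpG dinucleotides and the window given for Mirg (chr12:109734731-109735030), which lies within the gene as GENCODE draws it and not at the start printed above, held 10, beside a median of 7 over all 32851 windows.

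The small RNAs encoded within the region had few reads of their own. Of 23 annotated small nucleolar RNAs 14 had a row, and their summed normalized counts were 207, 23.3, 89.7 and 731, the highest again in the shallower Prmt5sKO library. In contrast to the long RNAs, the deeper Prmt5sKO library lay below the deeper control. The 323 small nucleolar RNA rows outside the region summed to 399062, 170628, 347511 and 667440, in the same order of libraries, so the order was not particular to the region. Of 67 annotated microRNAs 21 had a row, with sums of 57.6, 13.0, 47.4 and 113 from 51, 10, 64 and 112 reads. Gm23736, a small nucleolar RNA annotated between Rian and Mirg, had 0 reads in both controls and 10 and 58 reads in the Prmt5sKO libraries. B830012L14Rik, a non-coding RNA between Rian and Mirg, was at 6.78, 6.48, 25.9 and 52.3. Of the 11 other genes within 200 kb of Rian that were tested, 3 lay above both controls in each Prmt5sKO library and 0 below. These shares stood beside 25.2% and 23.6% of all genes tested. Gm23736 and B830012L14Rik were among the 3 (limma-voom, adjusted p = 0.390 and 0.372). Reads over several genes were left unassigned by the authors, and 19 annotated genes overlap Rian and 15 overlap Mirg, so that part of their reads may be missing from these counts.

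Dlk1 (ENSMUSG00000040856, plus strand, GRCm38 chr12:109452823-109463336), a transmembrane relative of the Notch ligands, had the fewest reads of these genes in every library. It had 33, 0, 55 and 22 reads, or 37.3, 0, 40.8 and 22.1 normalized counts. The count of 0 in the shallower control library allows a level of up to 3.89, an upper limit of 3 reads that covers counting error only. The other 3 libraries lay within 1.84-fold of each other and the groups overlapped. The ratio of the group means was 1.69. The fitted log2 fold change, 2.54 with a standard error of 1.64 (limma-voom, adjusted p = 0.527), depends on how the 0 is treated and became -0.26 without that library and 5.58 without the deeper control. Rtl1, a paternally expressed gene derived from a retrotransposon that lies on the opposite strand between Meg3 and Rian, was at 84.8, 18.2, 75.6 and 172, and so was also lowest in the shallower control.

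**Figure D3:**
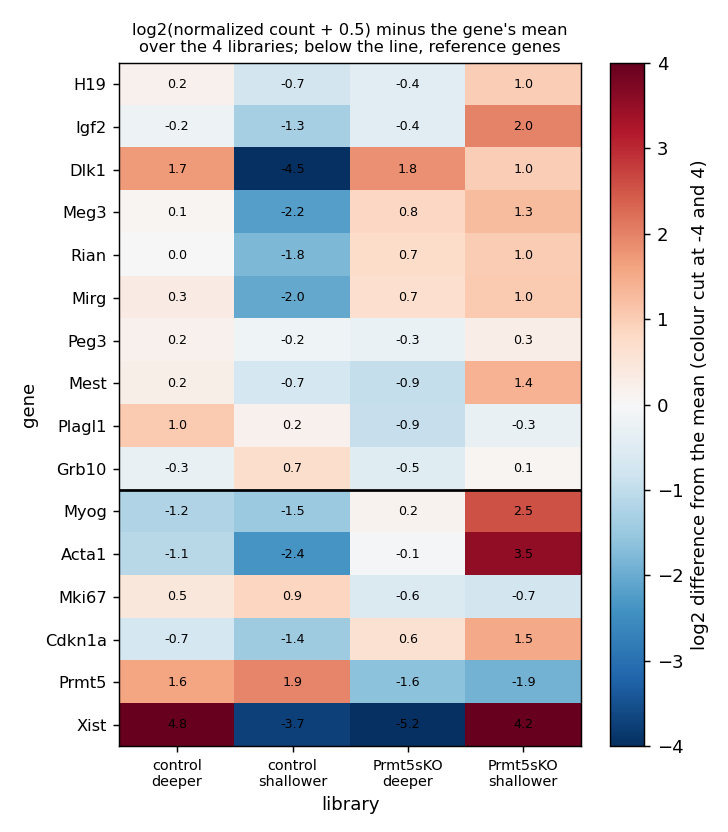
Heat map of log2(normalized count + 0.5) in each library minus the mean of the gene over the 4 libraries, for the 10 imprinted genes above the line and for Myog, Acta1, Mki67, Cdkn1a, Prmt5 and Xist below it; red is above and blue below the gene's mean. Meg3, Rian and Mirg shared a profile with their lowest value in the shallower control (-2.19, -1.79 and -2.04), Igf2 was highest in the shallower Prmt5sKO library (1.98) as was Acta1 (3.55), and Plagl1 had positive values in both controls only.

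Peg3 and Plagl1 code for zinc finger transcription factors expressed from the paternal copy. Peg3 (ENSMUSG00000002265, minus strand, GRCm38 chr7:6703892-6730431) was at 39477, 31174, 29200 and 42269, rank 20 of the table by mean normalized count. It was the steadiest of the 10 genes, with a 1.45-fold range over the 4 libraries and overlapping groups of 35326 ± 5871 and 35735 ± 9241 (SD, n = 2 each). The fitted log2 fold change was 0.01 with a standard error of 0.28 (limma-voom, adjusted p = 0.991), and its sign depended on the scaling, since it was -0.0098 with upper-quartile scaling, and on the library left out (-0.26 without the shallower Prmt5sKO library, 0.27 without the deeper one). Its neighbours Usp29, which starts next to it on the opposite strand, and Zim1, imprinted genes of the same domain, were at 14.7, 14.3, 28.2 and 44.3 and at 1546, 1069, 1386 and 2178.

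Plagl1 (ENSMUSG00000019817, plus strand, GRCm38 chr10:13060504-13131694), also called Zac1 and known to arrest the cell cycle, to bind GC-rich sites and to regulate other imprinted genes, was at 4286, 2350, 1102 and 1716. Both Prmt5sKO libraries lay below both controls, and it was the only one of the 10 genes for which this held (beside 23.6% of all genes tested). The groups averaged 3318 ± 1369 and 1409 ± 434 (SD, n = 2 each), and the fitted log2 fold change was -1.21 with a standard error of 0.36 (limma-voom, unadjusted p = 0.016, adjusted p = 0.300). With 1 library left out it lay between -1.63 (without the shallower control) and -0.79 (without the deeper control). The kept sign follows from the groups not overlapping and adds nothing to it. Of the 7 tested genes within 200 kb of Plagl1, 3 were lower in both Prmt5sKO libraries and 2 higher, beside 23.6% and 25.2% of all genes tested. Among the lower ones were Sf3b5, a splicing factor subunit (678, 551, 345 and 385), and Ltv1, a ribosome assembly factor (979, 1035, 733 and 693). The other lower one was Gm27741, a non-coding RNA with only 6, 14, 0 and 0 reads.

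The promoter windows of Plagl1 and Peg3 are shown because Plagl1 was the gene that was lower and because its protein binds GC-rich motifs. The core motif GGGGCCCC, whose reverse complement is the same, was searched in all windows. It was found in 1 of 16 windows of the 9 genes with a window (H19 had none), that of Peg3, where capitals mark it, and in 354 of 32851 windows in all (1.078%). The E-box CAGCTG, the core bound by MyoD and myogenin, was in 1 of 16, a window of Mest, and in 16.3% of all windows. Such matches describe letters and show no binding. The windows are on the plus strand for Plagl1 (GRCm38.p6, chr10:13090582-13090881) and on the minus strand for Peg3 (chr7:6730370-6730669). The Plagl1 window lies within the gene as GENCODE draws it and not at the start printed above.
Plagl1 promoter window: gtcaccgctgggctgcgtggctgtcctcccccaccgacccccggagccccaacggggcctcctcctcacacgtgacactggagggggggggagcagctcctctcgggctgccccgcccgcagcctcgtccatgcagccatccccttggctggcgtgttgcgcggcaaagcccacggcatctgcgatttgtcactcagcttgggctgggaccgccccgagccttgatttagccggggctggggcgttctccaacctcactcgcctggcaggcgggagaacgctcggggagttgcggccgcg
Peg3 promoter window: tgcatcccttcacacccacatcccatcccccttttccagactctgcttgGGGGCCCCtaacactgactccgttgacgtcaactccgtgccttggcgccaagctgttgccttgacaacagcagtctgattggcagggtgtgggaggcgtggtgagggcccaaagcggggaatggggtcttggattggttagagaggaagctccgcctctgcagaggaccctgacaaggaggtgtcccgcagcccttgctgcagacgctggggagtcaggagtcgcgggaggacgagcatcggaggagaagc
The Plagl1 window held 26 CpG dinucleotides and a GC content of 70.7%, and the Peg3 window 13 and 61.3%, beside medians of 7 and 52.7% over all windows. The highest CpG number of the 16 windows was 45, at a start of Grb10.

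Mest (ENSMUSG00000051855, plus strand, GRCm38 chr6:30723547-30748465), also called Peg1, codes for a protein of the alpha/beta hydrolase fold family from the paternal copy. It was at 7483, 3927, 3279 and 16629. The deeper Prmt5sKO library was the lowest of the 4 and the shallower one the highest, 5.07-fold apart, so the groups overlapped. Means were 5705 ± 2515 and 9954 ± 9440 (SD, n = 2 each), and the fitted log2 fold change was 0.46 with a standard error of 0.74 (limma-voom, adjusted p = 0.804) that became -0.73 without the shallower and 1.62 without the deeper Prmt5sKO library, and 0.02 and 0.92 with the shallower or the deeper control left out. Copg2, which codes for a coat protein of transport vesicles and overlaps Mest on the opposite strand, was at 694, 532, 964 and 1069, higher in both Prmt5sKO libraries (log2 fold change 0.73, limma-voom unadjusted p = 0.021, adjusted p = 0.320). As the strand setting of the counting is not given, reads of Copg2 and Mest where they overlap cannot be told apart with certainty. Mir335, within Mest, had at most 3 reads in any library.

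Grb10 (ENSMUSG00000020176, minus strand, GRCm38 chr11:11930508-12038683) codes for an adaptor protein that binds the insulin and IGF receptors and restrains their signal, expressed from the maternal copy outside the brain. It was at 4462, 8819, 3928 and 5765. The shallower control library was the highest, which among the 10 genes was seen for Grb10 alone, and the groups overlapped. Means were 6640 ± 3081 and 4846 ± 1298 (SD, n = 2 each), with a fitted log2 fold change of -0.40 and a standard error of 0.38 (limma-voom, adjusted p = 0.663) that became 0.11 without the shallower control and -0.90 without the deeper control library, and -0.68 and -0.12 without the shallower and the deeper Prmt5sKO library. Of the 5 tested genes within 200 kb of Grb10, 2 were lower in both Prmt5sKO libraries and 1 higher, beside 23.6% and 25.2% of all genes tested. Among the lower ones was Fignl1, a gene of DNA repair (893, 869, 440 and 384, log2 fold change -1.09). The other lower one was Gm24036, a small nuclear RNA with only 2, 15, 0 and 0 reads. The higher one was Cobl (102, 169, 196 and 762), another imprinted gene.

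Levels of the 10 genes, compared as mean normalized count per kb of exon, spanned from 40241 for H19 to 4.43 for Dlk1. In falling order H19 was followed by Igf2 (3293), Peg3 (2667), Mest (1985), Grb10 (632), Plagl1 (302), Rian (41.9), Meg3 (26.1), Mirg (21.0) and Dlk1. H19 stood clear of Igf2, with its lowest library at 21739 per kb and the highest of Igf2 at 8727. The ranges over the 4 libraries overlapped between Igf2, Peg3 and Mest, of Grb10 with those of Igf2, Mest and Plagl1, among Rian, Meg3 and Mirg, and of Dlk1 (up to 7.20) with those of Meg3 and Mirg (down to 4.16 and 3.91), while the lowest library of Plagl1 (141) lay above the highest of Rian (68.2). Paternally and maternally expressed genes were found at both ends of the order.

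The direction within each group was shared by most of the genes. In the shallower Prmt5sKO library 7 of the 10 (H19, Igf2, Meg3, Rian, Mirg, Peg3 and Mest) had their highest value, beside 27.6% of all genes tested. In the shallower control library 6 of the 10 (H19, Igf2, Dlk1, Meg3, Rian and Mirg) had their lowest value, beside 30.7% of all genes. Muscle differentiation markers did likewise, as 21 of 21 were highest in the shallower Prmt5sKO library and 19 of 21 lowest in the shallower control, with summed levels of 63244, 105948, 61347 and 496844. The highest of these markers by normalized count in each library was Ttn, the giant spring protein of the sarcomere, at 39149, 90033, 28428 and 171011. It made up most of the sum in the shallower control. Ttn is very long, and its mean per kb of exon (703) lay below those of Mylpf (12464) and Acta1 (11157). Their median log2 ratio of the shallower to the deeper library was 3.68 in Prmt5sKO and -0.85 in control. The level of Xist moved the same way, and 8 of the 10 genes, all but Dlk1 and Grb10, were higher in the library with more Xist in both groups, beside 28.1% of all genes. What part the differentiation markers or the libraries' Xist level had in these values was not tested.

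Markers of other cell types were mostly low. The 8 fibroblast markers with a row summed to 19548, 7780, 18206 and 29348, almost wholly from Col3a1 and Col1a2, which muscle cells in culture express too, while Lum and Dpt had no reads in the deeper control. The 4 adipogenic markers summed to between 265 and 367, the 4 endothelial ones to between 56.3 and 163 and the 4 immune ones to between 68.2 and 144, with Pparg (up to 258), Kdr (up to 67.8) and Cd68 (up to 112) among the strongest. There was no row for Tcf21, Adipoq, Emcn, Ptprc and Adgre1. Lum and Fabp4 had reads in the shallower control library alone, at 27.2 and 25.9. Of the 7 fibroblast markers tested, 3 were lowest in that library, beside 30.7% of all genes tested. These were Col3a1 (13308, 5774, 13988 and 16357), Col1a2 (6015, 1657, 3925 and 12522) and Col1a1 (116, 59.7, 99.3 and 328). Thy1, Pdgfra and Lum were highest there, Pdgfra only narrowly (44.1, beside 43.7 in the deeper Prmt5sKO library). Dpt, too low to be tested, was also highest there (0, 6.48, 0.741 and 1.01). H19, Igf2, Meg3, Rian, Mirg and Dlk1 were lowest in that library as well. The study purified satellite cells by FACS, with antibodies that leave out CD11b, CD45 and CD31 positive cells or with a Pax7 reporter, before they were cultured. The part of other cells in that result was not tested.

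Proliferation markers were lower in both Prmt5sKO libraries for 10 of 10 genes, beside 23.6% of all genes tested, among them Mki67 (9130, 12079, 4488 and 3972), and the cell cycle inhibitor Cdkn1a was higher (3379, 2057, 8358 and 15703). Of the 10 imprinted genes, Plagl1 shared the direction of the proliferation markers and Meg3, Rian and Mirg that of Cdkn1a.

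**Figure D4:**
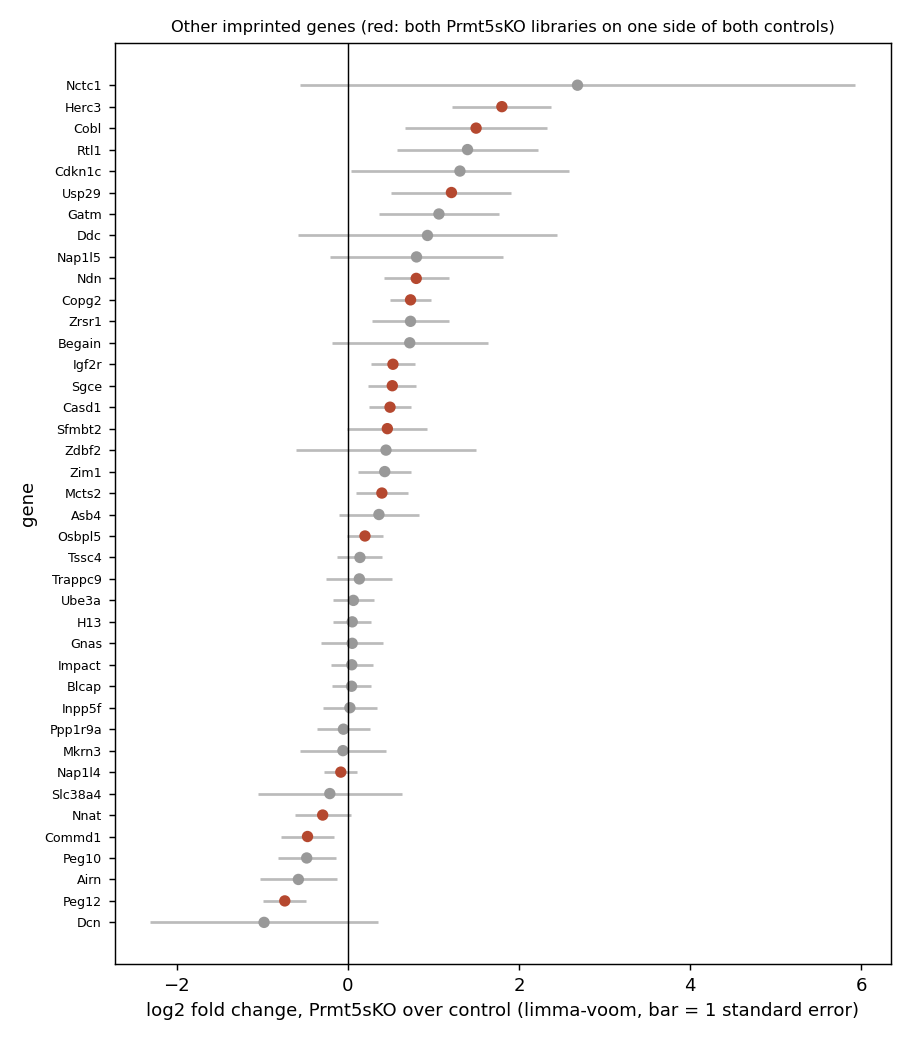
Log2 fold change, Prmt5sKO over control, by limma-voom, of the 40 other imprinted genes that were tested, with bars of 1 standard error; red points are genes whose 2 Prmt5sKO libraries both lay above or both below the 2 controls. Of the 40 points 30 lay above 0, with a median of 0.38, and Herc3 (1.80) was the gene with an unadjusted p under 0.05 that lay furthest to the right.

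Other imprinted genes gave a background for the 10. Of 57 listed, 42 had a row and 40 were tested. Their median log2 fold change was 0.38, and 11 had both Prmt5sKO libraries above both controls while 4 had them below, beside 25.2% and 23.6% of all genes tested, so that the share above was near the background. Without the shallower Prmt5sKO library the median was 0.14. By limma-voom 3 had an unadjusted p under 0.05 (Herc3 and Copg2 higher, Peg12 lower), beside 13.0% of all genes, and none passed the adjusted test. Herc3, a ubiquitin ligase gene near Nap1l5, was at 192, 170, 407 and 1031 (log2 fold change 1.80, standard error 0.58, limma-voom adjusted p = 0.320). Among those with the highest level per kb were Peg10 (6916, 8827, 4077 and 7633), a gene of retrotransposon origin, and Igf2r, given below with its ligand. Also among them were Nap1l4 (3076, 3100, 2813 and 3020), Osbpl5 (2012, 1769, 2330 and 2015), Tssc4 (587, 454, 512 and 647), H13 (2531, 2205, 2177 and 2749) and Impact (1079, 1443, 1437 and 1146), none of which varied as much between libraries as Igf2 or Meg3 did. Gatm, an enzyme of creatine synthesis, was at 900, 622, 748 and 3327, highest in the shallower Prmt5sKO library like Igf2. Cdkn1c, a maternally expressed inhibitor of the cell cycle, was at 45.2, 41.5, 41.5 and 362.

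The receptors and binding proteins of the growth factor coded by Igf2 were measured alongside it. Of 16 tested genes of this axis, 6 were higher and 3 lower in both Prmt5sKO libraries, beside 25.2% and 23.6% of all genes tested, so that together they were near the background of 48.8%. By limma-voom 3 higher and 1 lower had an unadjusted p under 0.05, beside 6.01% and 6.95% of all genes. Igfbp5, a binding protein of IGFs abundant in differentiating myoblasts, was at 2674, 1901, 8884 and 10245 (log2 fold change 2.08, standard error 0.25, limma-voom adjusted p = 0.198). Igfbp4 was at 131, 145, 283 and 356 and Igfbp7 at 624, 108, 849 and 883. Igfbp7 was thus lowest in the shallower control as the Dlk1-Dio3 RNAs were. The receptor genes differed less, with Igf1r, the signalling receptor, at 2865, 2541, 1872 and 1987, Igf2r, an imprinted gene whose product clears Igf2, at 3644, 3776, 4311 and 6596, and Insr at 799, 827, 759 and 845. Irs1, which carries the signal on from the receptors, was lower in both Prmt5sKO libraries (3867, 4430, 2429 and 2992).

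Genes whose products set, keep or remove imprints were mostly lower in Prmt5sKO. Of 16 tested, 13 were lower in both Prmt5sKO libraries and 0 higher, beside 23.6% and 25.2% of all genes tested. Their log2 fold changes had a median of -0.61. There were 8 that were lower with an unadjusted p under 0.05 by limma-voom, beside 6.95% of all genes, and none passed the adjusted test. Dnmt1, which copies DNA methylation after replication, was at 7769, 8724, 3434 and 3458 (log2 fold change -1.26), and its partner Uhrf1 was at 5038, 5861, 2158 and 2126 (-1.34). Trim28, the corepressor that guards imprints with zinc finger proteins, was at 9589, 9729, 5599 and 5654 (-0.78), and Ctcf, which insulates Igf2 from the enhancers shared with H19, was at 2242, 2312, 1477 and 1449 (-0.64). The others were Ezh2 (-0.76), Smchd1 (-0.72), Cnot3 (-0.69) and Tet3 (-0.81), whose product acts to remove DNA methylation. Zfp57 and Zfp445, zinc finger genes that bind imprint control regions, were at 373, 353, 543 and 350 and at 1025, 1276, 1204 and 1212. Dnmt1 and Uhrf1 are also known to rise and fall with the cell cycle, whose markers were lower in the same libraries, and the part of that in these values was not tested.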

How the data were processed

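RNA from cultured MuSC was depleted of ribosomal RNA (RiboMinus), made into libraries with an Ion Total RNA-Seq kit and sequenced on an Ion Torrent Proton. Per the study's methods and the submitters' processing notes, the authors used Reaper to trim reads, STAR 2.4.0a to align them to GRCm38 and DESeq2 to compare the groups, and counted only reads that fell on 1 gene. The signal values used here are deposited group means: counts divided by DESeq2 size factors, averaged by the authors over the 2 libraries of a group. The authors' fold changes and p-values in the same table were not used. It lists no gene with a mean under 0.90.

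Since each library adds whole multiples of its own step to a group mean, the count of every gene in each library could be recovered, for 100% of the 20065 genes, with a largest relative residual of 5.2e-15. The total counts per library, between 13240754 and 20047430, set the precision. Gene names and positions came from GENCODE M21 on the same build (19782 symbols matched). The fit was limma-voom (limma 3.58.1, R 4.3.3) of Prmt5sKO against control with TMM factors (trims of 30% and 5%), on the 16212 genes whose normalized count averaged 5 or more, and Benjamini-Hochberg adjustment over all of them. The recovery and the fit were tested on simulated data in which every gene had the same dispersion. For the fit, that setting does not cover genes that differed as widely within a group as Igf2 or Meg3. Standard errors are those of the fit, and SDs are over the 2 libraries of a group. A pseudocount of 0.5 was used for the heat map and for profile distances. Per-kb levels divide by the merged exon length of GENCODE M21.

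The members and gene lists were chosen with earlier results of these data known. The genes named in the text were all 10 members, checks of the libraries, the other imprinted genes with an unadjusted p under 0.05 or among the 8 with the highest per-kb level, the genes of the IGF axis and of the regulators of imprinting with an unadjusted p under 0.05 and the IGF receptors, the strongest and the absent markers of each cell type, and genes within 200 kb of a member. Cdkn1c, Zfp57, Zfp445, Myod1, Pax7, Mki67, Acta1, Mylpf, Col3a1, Col1a2, Col1a1, Thy1 and Pdgfra were added after their values were seen. Alternatives were other scalings, other filters on low counts, limma-trend with a robust fit, a replicate block and leaving out each library.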

Additional observations from a re-analysis of the deposited data

How the results depend on the processing

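No gene was called by limma-voom with all 4 libraries (2101 at an unadjusted p under 0.05), and 1 was by limma-trend with a robust fit, none of them one of the 10. Leaving out 1 library gave between 0 and 489 calls, with 489 without the deeper Prmt5sKO library (Igf2 among them), 55 without the shallower one and 0 without either control. The lone library of a group is then assumed to vary like the other group. Replicate numbers exist in the labels but not in the deposited columns. A replicate block on the libraries of like depth gave 0 calls (1884 at an unadjusted p under 0.05), and deviations of libraries so paired correlated at -0.30 over 11487 genes. The crossed pairing, chosen after seeing the data, gave 346 calls, with Plagl1 (-1.21, adjusted p = 0.034) the only one of the 10.

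Scaling by library size alone moved the median log2 fold change of all genes from 0.02 to 0.13, and that of the other imprinted genes from 0.38 to 0.48. With TMM and a mean count of at least 20 the latter was 0.28. Peg3 was -0.0098 with upper-quartile scaling. With 1 library left out, log2 fold changes ranged from -0.17 to 1.28 for H19, 0.32 to 2.74 for Igf2, -0.26 to 5.58 for Dlk1, 0.96 to 3.22 for Meg3, 0.85 to 2.65 for Rian, 0.53 to 2.86 for Mirg, -0.26 to 0.27 for Peg3, -0.73 to 1.62 for Mest, -1.63 to -0.79 for Plagl1 and -0.90 to 0.11 for Grb10. The median of the 10 ranged from 0.078 to 1.73 and that of the other imprinted genes from 0.14 to 0.383. The 4 genes whose groups did not overlap were 4 under each scaling tried. A filter on low counts could not change that count, since the scaling was set before the filter. That count does not depend on the test or the block and was not recomputed with a library left out. Of the values recomputed under an alternative, 153 were the same in direction and call, 9 counts or medians moved, 7 changed sign and 2 passed the test only there. The cause of the differences was not tested.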

Other observations

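For the 3 genes with the highest mean normalized count among the 10, the genes of most similar profile were looked up among 11487 genes with a mean of at least 50, by the Euclidean distance between log2 values centred on each gene's mean over the 4 libraries. For H19 these were Shisa4 (distance 0.0946), Ifi204, Sema3c, Ngef and Arl6ip5, beside a median distance of 1.46 over all genes. Arl6ip5 was at 3814, 2187, 3096 and 6501 normalized counts in the order deeper control, shallower control, deeper Prmt5sKO and shallower Prmt5sKO. For Igf2 the nearest were Tmtc1 (0.254), Bcam, Pfkm, Gm25970 and Parm1, beside a median of 2.48. Pfkm, the muscle form of phosphofructokinase, was at 824, 441, 837 and 3449. For Peg3 the nearest were Ergic1 (0.0116), Leo1, Gipc1, Siva1 and Snx30, beside a median of 0.770.

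The other members were not among the nearest genes of any of the 3. Mest had rank 226 by distance from H19 and rank 186 from Igf2, and H19, the neighbour of Igf2 in the genome, had rank 264 from Igf2. These distances rest on 4 libraries that share the depth and composition described above, and they are given as a description.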
